A study of Mus musculus with 6 samples.

Results

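The growth factor receptor tyrosine kinases described here are 10 receptor genes, chosen by symbol from the 55487 rows of the deposited expression table. They are the ErbB genes Egfr, Erbb2, Erbb3 and Erbb4, the fibroblast growth factor receptor genes Fgfr1, Fgfr2 and Fgfr3, the insulin and IGF1 receptor genes Insr and Igf1r, and the platelet-derived growth factor receptor gene Pdgfra. RNA was sequenced from YFP-expressing cells sorted out of the mouse subventricular zone, a neurogenic niche on the wall of the lateral ventricles. The knockout group (EKO, genotype E2F1(-/-);E2F3(F/F)) and the heterozygous group (EHT, genotype E2F1(+/-);E2F3(F/+)) had 3 libraries each, named A to C. All animals carried NestinCreERT2 and an R26 EYFP reporter on a mixed C57BL/6;Sv/129;FVB/N background. They were 6 to 10 weeks old when a 5 day course of tamoxifen (200 mg/kg per day) began, and tissue was taken 10 days after its end. Cre under the Nestin promoter recombines in neural stem cells and other Nestin-expressing cells, and the reporter also marks their descendants. Mice were pooled to reach 200000 sorted cells per library, so the spread between libraries is a spread between pools. The heterozygous animals also lacked 1 E2F1 allele and carried 1 floxed E2F3 allele, so the comparison is with reduced and not with full gene dose, and the loss of E2F1 and that of E2F3 cannot be told apart.

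Receptor tyrosine kinases are membrane proteins whose kinase domains phosphorylate one another when a ligand brings receptor molecules together. Adaptors that dock on the phosphorylated tails start the RAS-ERK and PI3K-AKT cascades. In this niche Egfr is known as a receptor of activated stem cells and transit-amplifying progenitors, Erbb4 as a neuregulin receptor of migrating neuroblasts, Fgfr3 as a receptor of astrocytes and stem cells, and Pdgfra as a defining receptor of oligodendrocyte progenitors.

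The libraries held 19798675 to 25982361 reads assigned to genes. E2f1, the gene labelled null, had 375, 483 and 516 normalized reads in knockout libraries A, B and C and 1152, 1388 and 1029.5 in heterozygous libraries A, B and C. The groups did not overlap, and the log2 fold change was -1.38 ± 0.22 (SE; limma adjusted p = 0.00559). E2f3 averaged 266 ± 50.1 in knockout and 250 ± 44.0 in heterozygous libraries (SD, n = 3 each), and reads over the whole gene do not check the removal of floxed exons. Marker genes of other cell types also differed between the genotypes. All 10 neuroblast markers were lower in knockout libraries, as were 4 of 8 markers of activated and transit-amplifying cells, while 6 of 9 ependymal and 2 of 11 astrocyte and quiescent stem cell markers were higher (limma across all genes, adjusted p under 0.05). Of 7 striatal and mature neuron markers, 1 was higher and 3 lower. Over all tested genes 15.8% were called (7.23% higher and 8.59% lower), against 18.2% of the astrocyte and quiescent stem cell list. Among ependymal markers, Foxj1 passed in 5 of the 6 fits that leave out 1 library and Rarres2 in 2. Rsph1, Dnah11, Ccdc153, Tmem212, Pifo, Hydin and Dynlrb2 passed in 1 each, the fit without knockout C. Pdgfra stood many times higher in both C libraries than in the other 4, and the receptors' log2 differences are given with and without both C libraries, a fit chosen after the data were seen.

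All 10 receptor genes passed the filter on low values, a mean of at least 10 normalized reads. In the limma test across 18227 genes, Erbb4 was lower in knockout cells, Fgfr1 was higher, and the other 8 receptors did not pass an adjusted p of 0.05. The 2 receptors called make up 20% of the 10, against 15.8% of all tested genes called in either direction (7.23% higher and 8.59% lower), so the share of receptors called lay near that of all genes. The median log2 fold change of knockout over heterozygous libraries was 0.33 over the 10 receptors and 0.05 over all tested genes, and 8 of the 10 receptors had a positive value. Among these 8, Pdgfra (0.00) and Igf1r (0.05) lay near 0, and the positive share of all tested genes was not counted. Groups did not overlap for Erbb2, Fgfr1 and Erbb4, that is 30% of the receptors, against 38.7% of all tested genes (18.5% higher and 20.2% lower). edgeR on whole reads called the same 2 receptors, against 16.0% of its 18218 genes. In the authors' deposited table, which uses DESeq2 with weighted p-values, 4 receptors had an adjusted p under 0.05 (Erbb4, Fgfr1, Erbb2 and Fgfr3), against 14.3% of all its rows with an adjusted p.

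**Figure D1:**
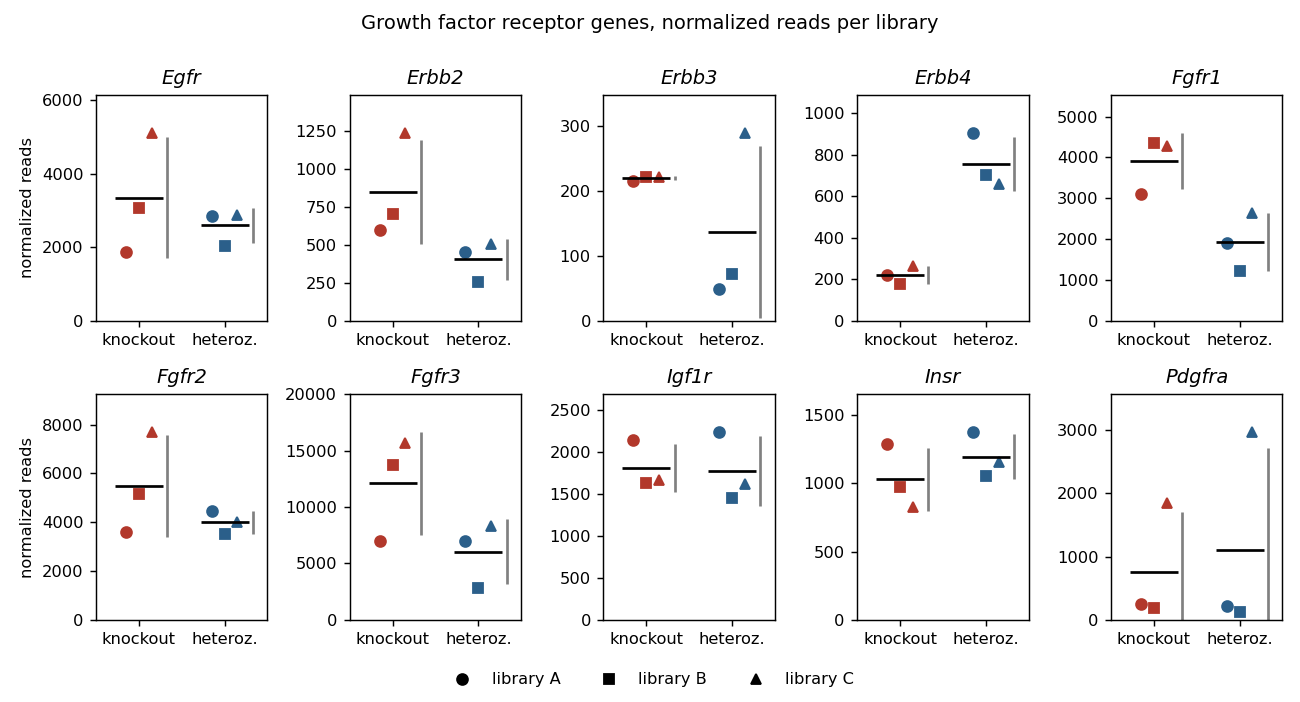
Normalized reads of the 10 receptor genes in each library, knockout left and heterozygous right, with the axis from 0 and its own scale in each panel. Points are single libraries, black lines the group means and grey bars the mean ± SD (n = 3, not drawn below 0). Erbb4 is lower and Fgfr1 and Erbb2 are higher in every knockout library than in every heterozygous library, and Pdgfra is high in the C library of both groups.

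**Figure D2:**
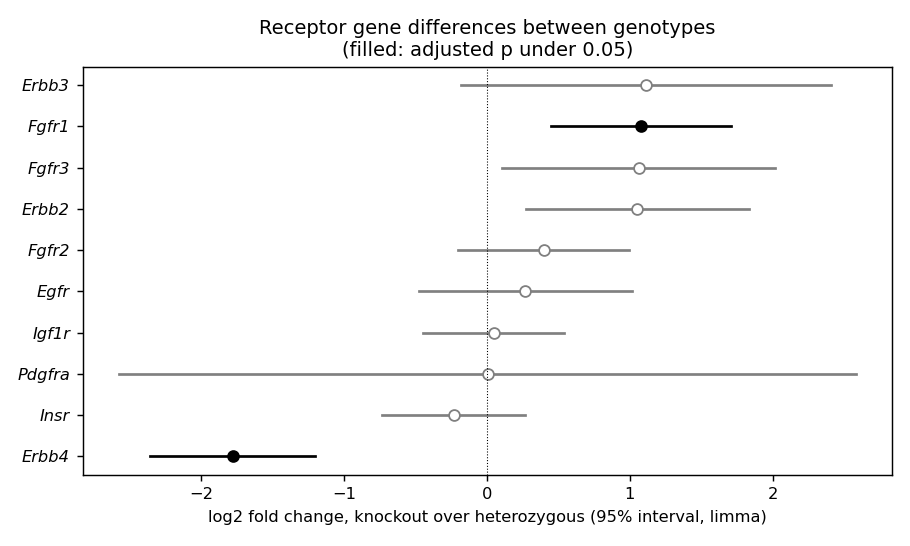
Log2 fold change of knockout over heterozygous libraries for each receptor gene, with the 95% confidence interval from limma (3 libraries per group). Filled points mark the 2 receptors with an adjusted p under 0.05, Erbb4 at -1.78 and Fgfr1 at 1.08.

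The ErbB genes encode the receptors for epidermal growth factor and the neuregulins. Among them Erbb4 passed the test, and Erbb2, Erbb3 and Egfr did not. Erbb4 (ENSMUSG00000062209, GRCm38 chromosome 1, 68032186 to 69108059, minus strand), which binds neuregulins and carries an active kinase, had 219, 176 and 266 normalized reads in knockout libraries A, B and C, against 907, 703 and 662 in heterozygous libraries A, B and C. The highest knockout value was well under the lowest heterozygous one. The log2 fold change was -1.78 ± 0.26 (SE; limma adjusted p = 0.00349), a 3.44-fold decrease. Erbb4 passed in each of the 6 fits that leave out 1 library, with log2 fold changes of -1.93 to -1.63, and without both C libraries it was -2.02.

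The region just before the Erbb4 transcription start is shown because Erbb4 is the receptor that fell in a comparison of E2F genotypes, and that of Erbb2 because it is the ErbB gene with the opposite direction and non-overlapping groups. Both are the 250 bases before the RefSeq start on GRCm38.p6, written 5′ to 3′ on the strand of the gene (Erbb4 chr1:69108060-69108309, minus strand; Erbb2 chr11:98412234-98412483, plus strand). Capitals mark the E2F core described after the sequences.
Erbb4: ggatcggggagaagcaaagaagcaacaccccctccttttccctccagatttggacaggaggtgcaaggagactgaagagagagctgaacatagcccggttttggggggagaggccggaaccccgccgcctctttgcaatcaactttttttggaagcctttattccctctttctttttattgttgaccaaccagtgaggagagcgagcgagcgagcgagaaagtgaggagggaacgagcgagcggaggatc
Erbb2: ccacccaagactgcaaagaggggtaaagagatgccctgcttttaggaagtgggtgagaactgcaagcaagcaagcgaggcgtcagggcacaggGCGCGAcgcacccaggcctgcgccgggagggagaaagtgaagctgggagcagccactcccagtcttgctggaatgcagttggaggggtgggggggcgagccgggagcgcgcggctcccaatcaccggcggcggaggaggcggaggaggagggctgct
A promoter window of 300 bases, 250 before and 50 after the start, was found for 7 of the 10 receptors, with 8 windows in all because Fgfr3 has more than 1. None of the 8 windows holds any of the 4 E2F consensus words TTTCGCGC, TTTGGCGC, TTTCCCGC and TTTGCCGC on either strand, which occur in 2.26% of all 32851 windows. The shorter cores, the last 6 letters of each word, occur on either strand in 36.3% of all windows and in 5 of the 8 receptor windows (those of Egfr, Erbb2 and Igf1r and both of Fgfr3). Erbb4 has none, and Erbb2 has 1 on the opposite strand, printed in capitals above. The Erbb4 window is 55.3% G and C with 17 CpG dinucleotides, and the Erbb2 window 66.0% with 21, against medians of 52.7% and 7 over all windows. These matches are letters in a window and say nothing of binding.

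Erbb4 moved in the same direction as the neuroblast markers. The summed level of the 10 neuroblast markers was 13786 to 16412 normalized reads in knockout libraries and 70731 to 111945 in heterozygous libraries, with a median log2 fold change of -3.11 and no marker at 0 in any library. The log2 decrease of Erbb4 was smaller than that median. In bulk RNA, fewer cells of a type and less RNA per cell cannot be told apart, and the part of the neuroblast change in the Erbb4 value was not tested. The genes whose pattern over the 6 libraries was most like that of Erbb4, by the root-mean-square difference of mean-centred log2 values among 14134 other genes, were Flrt2 (0.13), Arhgef7 (0.15) and Dusp8 (0.15).

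Erbb2 (ENSMUSG00000062312, chromosome 11, 98412470 to 98437716, plus strand), which has no known ligand of its own and serves as the shared partner of the other ErbB receptors, had 600.0, 704 and 1239.6 normalized reads in knockout libraries A, B and C, against 454, 253 and 508 in heterozygous libraries A, B and C. Each knockout library lay above each heterozygous library, with knockout C well above the rest. The log2 fold change was 1.05 ± 0.35 (SE) with a 95% interval of 0.27 to 1.84, and it did not pass the correction over all genes (limma unadjusted p = 0.0135, adjusted p = 0.0677). Without both C libraries it was 0.94 (adjusted p = 0.0715). The authors' deposited table gives a log2 fold change of 1.07 with an adjusted p of 0.0161.

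Egfr (ENSMUSG00000020122, chromosome 11, 16752203 to 16918158, plus strand), the receptor for EGF and TGF-alpha, had 1871, 3060 and 5122 normalized reads in knockout libraries A, B and C, against 2858, 2032 and 2893 in heterozygous libraries A, B and C. The knockout libraries spread on both sides of the heterozygous ones, with the lowest and the highest value of all 6. The log2 difference was 0.27 ± 0.33 (SE), with a 95% interval of -0.48 to 1.01 that spans a decrease of 1.39-fold and an increase of 2.02-fold (limma adjusted p = 0.603). Without knockout C it was -0.10 and without both C libraries -0.01. At the same time Mki67, a marker of cycling cells from the activated list, averaged 332 ± 111 in knockout and 3449.5 ± 484 in heterozygous libraries (SD, n = 3 each). The summed level of the 8 activated and transit-amplifying markers was 8948 in knockout library A, 10490 in B and 17448 in C. In heterozygous libraries A, B and C it was 31698, 33210 and 23111. The knockout libraries had the same order in this sum as in Egfr, while the heterozygous libraries had the opposite order. The part of these cells in the Egfr values was not tested.

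Erbb3 (ENSMUSG00000018166, chromosome 10, 128567523 to 128589652, minus strand), a neuregulin receptor with a weak kinase that signals through its partners, had 216, 222 and 222 normalized reads in knockout libraries A, B and C, against 48.4, 72.5 and 290 in heterozygous libraries A, B and C. The knockout libraries were nearly equal, with a coefficient of variation of 1.46%, while heterozygous C was higher than all of them and heterozygous A and B were several times lower. The log2 difference over all 6 libraries was 1.12 ± 0.58 (SE), with a 95% interval of -0.18 to 2.41 (limma adjusted p = 0.206). Without heterozygous C it was 1.87 and passed (adjusted p = 0.0214), as it did without both C libraries (1.87, adjusted p = 0.0139). Whether Erbb3 is higher in knockout cells thus turned on 1 library. Beside it, the summed level of 9 markers of mature oligodendrocytes, which also express Erbb3, was 80094 to 101220 in knockout and 51089 to 74127 in heterozygous libraries, with 1 of 9 called higher and none at 0 in any library, and their part in the Erbb3 values was not tested.

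Dividing reads by exon length allows the 4 ErbB genes to be compared with each other within a library, free of scaling between libraries. Egfr made up most of the ErbB reads per kilobase in both groups, 56.4% ± 6.00 in knockout and 58.9% ± 2.33 in heterozygous libraries (SD, n = 3 each). Erbb2 made up 34.5%, 29.6% and 31.8% in knockout libraries A, B and C, against 20.7%, 16.3% and 21.4% in heterozygous ones. Erbb4 made up 5.32%, 3.13% and 2.88% in knockout libraries A, B and C, against 17.4%, 19.2% and 11.8% in heterozygous ones. The summed ErbB level was 513 ± 213 normalized reads per kilobase in knockout and 391 ± 83.1 in heterozygous libraries, and the groups overlapped. The log2 ratio of Erbb4 to Erbb2 reads was -1.89 ± 0.40 in knockout and 0.95 ± 0.55 in heterozygous libraries (SD, n = 3 each) on reads not divided by length. Per kilobase, Erbb2 exceeded Erbb4 in all knockout libraries and also in heterozygous A (87.1 against 73.4) and C (97.5 against 53.6), but not in heterozygous B (48.5 against 56.9). The difference in the log2 ratio of -2.84 has an exact two-sided permutation p = 0.1, the smallest that 3 against 3 libraries allow, and 0.16 after adjustment over the 8 within-family ratios computed.

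**Figure D3:**
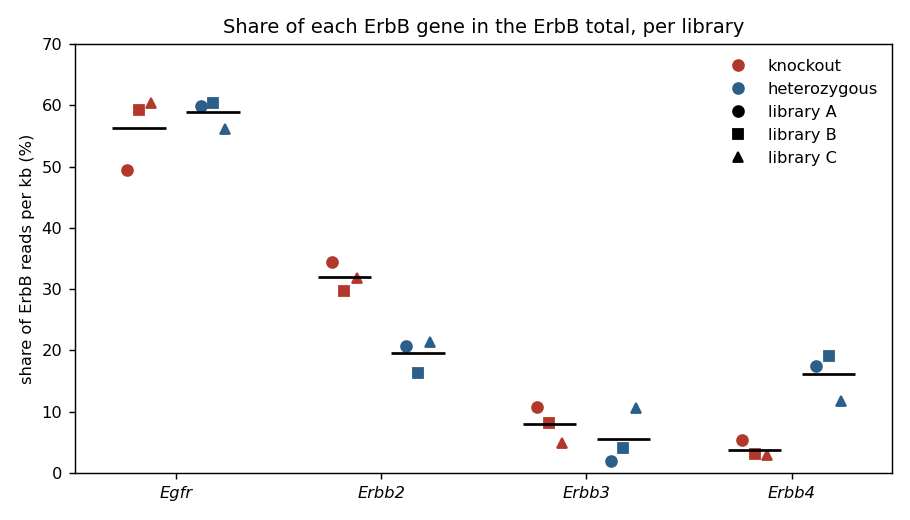
Share of each ErbB gene in the summed ErbB reads per kilobase of exon, in percent, with knockout libraries left and heterozygous libraries right for each gene. Points are single libraries and black lines the group means; the Erbb2 shares are 29.6% to 34.5% in knockout and 16.3% to 21.4% in heterozygous libraries, and the Erbb4 shares 2.88% to 5.32% and 11.8% to 19.2%.

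Among the fibroblast growth factor receptors, Fgfr3 and Fgfr2 had the highest levels per kilobase of the 10 receptors in both groups. Fgfr1 (ENSMUSG00000031565, chromosome 8, 25513654 to 25575718, plus strand), a receptor for FGF2, had 3109, 4354 and 4268 normalized reads in knockout libraries A, B and C, against 1892, 1223 and 2650 in heterozygous libraries A, B and C. All knockout libraries lay above all heterozygous libraries. The log2 fold change was 1.08 ± 0.28 (SE; limma adjusted p = 0.033), a 2.11-fold increase. Fgfr1 did not pass without heterozygous A (1.10, adjusted p = 0.0936), without heterozygous B (0.79, adjusted p = 0.109) or without knockout B (0.99, adjusted p = 0.127), and it passed without each of the others and without both C libraries (1.27). The genes with the most similar pattern over the 6 libraries were Perp (root-mean-square difference of 0.07 in log2 value), Mgll (0.08) and Stard8 (0.08). They were picked for their likeness to Fgfr1, so that each was called higher is not a separate result.

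Fgfr3 (ENSMUSG00000054252, chromosome 5, 33721674 to 33737068, plus strand) had 6976, 13718 and 15676 normalized reads in knockout libraries A, B and C, against 7029, 2801 and 8346 in heterozygous libraries A, B and C. Knockout B and C were above all heterozygous libraries, but knockout A was not. The log2 difference was 1.06 ± 0.43 (SE), with a 95% interval of 0.11 to 2.02, and did not pass the correction (limma adjusted p = 0.115). With 1 library left out it ranged from 0.58 without heterozygous B (adjusted p = 0.343) to 1.42 without knockout A (adjusted p = 0.0475), the one such fit in which it passed. Without both C libraries it was 1.14 (adjusted p = 0.058). Of the Fgfr3 exon bases 13.9% are shared with G630022F23Rik on the opposite strand, which averaged 8.93 normalized reads. Fgfr2 shares 314 exon bases (3.04%) with Ctbp2 on the same strand, which averaged 1680 normalized reads. Pdgfra shares 4.55% with Gm42802, which had no reads. The library kits do not mark strand, so reads on bases shared with a gene of the opposite strand cannot be assigned by strand. For Fgfr2 and Ctbp2, which lie on the same strand, strand could not separate the reads in any case. Whether the counting used a strand setting is not given in the sources used here.

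Fgfr2 (ENSMUSG00000030849, chromosome 7, 130162451 to 133123350, minus strand) had 3582, 5174 and 7707 normalized reads in knockout libraries A, B and C, against 4449, 3510 and 4009 in heterozygous libraries A, B and C. The annotated Fgfr2 span reaches far upstream of its promoter window (130266759 to 130267058). Its exon length includes the bases shared with Ctbp2. The groups overlapped, with knockout A among the heterozygous values and knockout B and C above them. The log2 difference was 0.40 ± 0.27 (SE), with a 95% interval of -0.20 to 0.996 (limma adjusted p = 0.325). It was 0.12 without both C libraries (adjusted p = 0.772) and also without knockout C alone (adjusted p = 0.748).

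Egfr, Erbb2, Fgfr2 and Fgfr3 shared an order among the knockout libraries, with A lowest and C highest. Among the heterozygous libraries all of them were lowest in B, and Egfr, Erbb2 and Fgfr3 were highest in C but Fgfr2 in A. The share of all tested genes with the knockout order was not counted. The summed level of 11 astrocyte and quiescent stem cell markers had the same knockout order, with 622592 normalized reads in knockout A, 828352 in B and 892999 in C. It was 447932 to 626893 in heterozygous libraries, and no marker was at 0. Ependymal markers had the opposite knockout order, with summed levels of 75755 in knockout A, 45073 in B and 17970 in C, against 12680 to 14109 in heterozygous libraries. The 7 endothelial markers summed to 25382 in knockout A, 9119 in B and 2844 in C, against 3853 to 4871 in heterozygous libraries. The part of these populations in the receptor values was not tested.

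Among the FGF receptors, per kilobase, Fgfr3 made up 63.9% ± 3.87 of the 3 genes in knockout and 57.0% ± 9.81 in heterozygous libraries, Fgfr2 20.3% ± 2.44 and 29.3% ± 9.46, and Fgfr1 15.8% ± 3.22 and 13.7% ± 1.54 (SD, n = 3 each, knockout first in each pair). The groups overlapped for all 3 shares. The log2 ratio of Fgfr1 to Fgfr3 differed by 0.02 between the groups (exact permutation p = 0.8), while those of Fgfr1 to Fgfr2 and of Fgfr3 to Fgfr2 differed by 0.68 and 0.67 (exact permutation p = 0.2 and 0.3).

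Insulin and IGF1 receptors bind the insulin family of ligands and form hybrids with each other. Igf1r (ENSMUSG00000005533, chromosome 7, 67952827 to 68233668, plus strand) had 2141, 1628 and 1661 normalized reads in knockout libraries A, B and C, against 2238, 1455 and 1611 in heterozygous libraries A, B and C. Insr (ENSMUSG00000005534, chromosome 8, 3122061 to 3279617, minus strand) had 1286, 970 and 829 in knockout libraries A, B and C, against 1377, 1052 and 1158 in heterozygous libraries A, B and C. Both genes overlapped between the groups, and both were highest in the A library of each group. The log2 difference was 0.05 ± 0.22 (SE) for Igf1r, with a 95% interval of -0.44 to 0.54 (limma adjusted p = 0.899). For Insr it was -0.23 ± 0.22, with an interval of -0.73 to 0.27 (adjusted p = 0.49). Without both C libraries the values were 0.05 for Igf1r and -0.11 for Insr. The log2 ratio of Igf1r to Insr was 0.83 ± 0.15 in knockout and 0.55 ± 0.13 in heterozygous libraries (SD, n = 3 each), a difference of 0.28 with groups that did not overlap (exact permutation p = 0.1). That p is the smallest that 3 against 3 libraries allow, and it was 0.16 after adjustment over the 8 within-family ratios.

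Pdgfra (ENSMUSG00000029231, chromosome 5, 75152292 to 75198215, plus strand) had 252, 182 and 1851 normalized reads in knockout libraries A, B and C, against 218, 129 and 2971 in heterozygous libraries A, B and C. The C library stood 8.53-fold above the mean of A and B in the knockout group and 17.1-fold above it in the heterozygous group, a spread between libraries of 1 genotype larger than any difference between genotypes among the 10 receptors. The log2 difference between genotypes was 0.00 ± 1.15 (SE), with a 95% interval of -2.57 to 2.58 (limma adjusted p = 0.998), so these libraries could not show a change of several fold. Without both C libraries it was 0.35. The authors' deposited table gives a log2 fold change of -0.54 ± 1.51 with its p-value left empty.

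Of the 9 other oligodendrocyte progenitor markers, some were also high in the C libraries and some were not. Gpr17, a receptor of differentiating progenitors, stood 6.00-fold above the mean of A and B in knockout C and 16.7-fold in heterozygous C, Neu4 6.89-fold and 23.8-fold, and Lhfpl3 7.71-fold and 16.8-fold. The lineage factor genes Olig1 and Sox10 stood 2.28-fold and 1.67-fold higher in knockout C, and 4.66-fold and 3.64-fold higher in heterozygous C. Olig2 stood 2.07-fold above the mean of A and B in knockout C and 2.45-fold in heterozygous C, and C1ql1 2.82-fold and 3.72-fold. The proteoglycan gene Vcan had 666 normalized reads in knockout C, where A and B averaged 444, and stood at 1.02-fold in heterozygous C. Cspg4, another proteoglycan gene, was at 1.03-fold in knockout C and 6.47-fold in heterozygous C, and Erbb3 at 1.01-fold and 4.79-fold. The summed level of the 9 progenitor markers was 4491, 4242 and 9775 normalized reads in knockout libraries A, B and C, against 4473, 3592 and 14372 in heterozygous ones. Across 14135 genes with a mean of at least 50, 4 were at least 5-fold above both other libraries of the group in both C libraries, and they were Pdgfra, Gpr17, Lhfpl3 and the somatostatin gene Sst. Markers of fibroblasts and mural cells, other cells known to carry PDGF receptors, were at most 1.0045-fold and 0.375-fold of the A and B mean in knockout C, and at most 2.07-fold and 2.79-fold in heterozygous C. The fibroblast gene Dcn was at 17.2 in knockout C and 28.0 in heterozygous C, against group means of A and B of 228 and 25.8. The 9 mature oligodendrocyte markers were 0.83-fold to 1.42-fold in the C libraries. The labels name no feature that the C libraries share other than the letter.

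**Figure D4:**
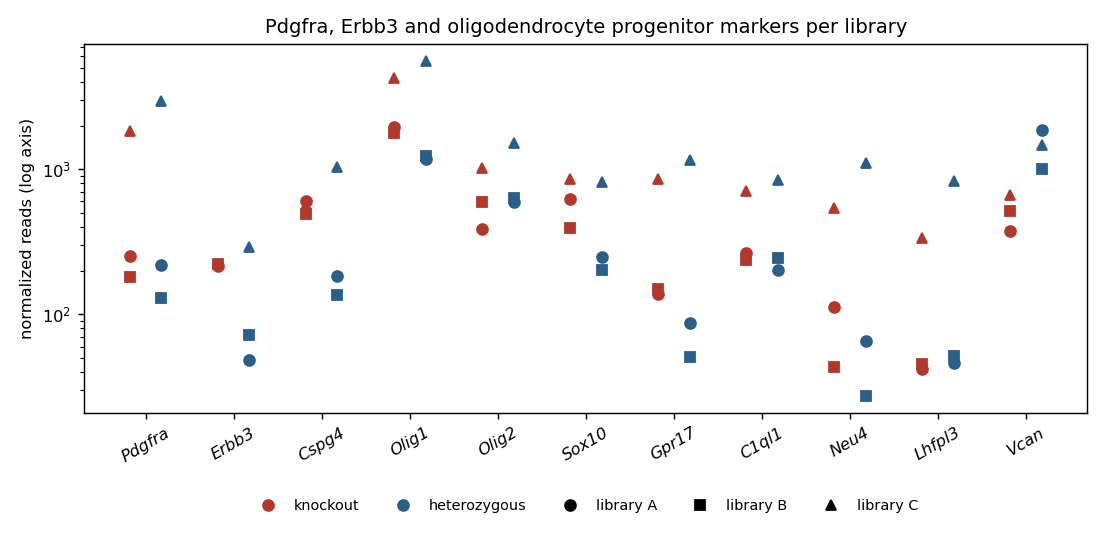
Normalized reads on a log axis of Pdgfra, Erbb3 and 9 marker genes of oligodendrocyte progenitors, with knockout libraries left and heterozygous libraries right for each gene. Triangles are the C libraries, which stand highest in both groups for Pdgfra (1851 and 2971), Gpr17, Neu4 and Lhfpl3, and by a smaller margin for C1ql1, Olig1 and Olig2.

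Ordered by level per kilobase of exon, Fgfr3 led in both groups, at 1694 ± 638 normalized reads per kilobase in knockout and 846 ± 405 in heterozygous libraries (SD, n = 3 each). Fgfr2 came next in both, at 531 ± 201 and 386 ± 45.5. In knockout libraries Fgfr1 (396), Egfr (296), Erbb2 (163), Igf1r (108), Pdgfra (76.0), Insr (74.8), Erbb3 (36.5) and Erbb4 (17.9) followed. In heterozygous libraries Egfr (229), Fgfr1 (195), Pdgfra (110), Igf1r (105), Insr (87.0), Erbb2 (77.7), Erbb4 (61.3) and Erbb3 (22.8) followed. Ranges of neighbours in this order did not overlap between Fgfr3 and Fgfr2, Insr and Erbb3, and Erbb3 and Erbb4 in knockout libraries, and between Fgfr2 and Egfr and Erbb4 and Erbb3 in heterozygous ones. All other neighbours overlapped over their 3 libraries. Exon length is the union of all annotated exons, which understates a gene that uses short transcripts.

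The ligands, adaptors and targets of these receptors were read from 10 lists with 164 genes, of which 140 passed the filter. Among those 140, 8 were called higher and 11 lower, that is 13.6% against 15.8% of all tested genes, with a median log2 fold change of 0.21. These counts rest on single libraries. With heterozygous A left out, 1 was called higher and 4 lower, with heterozygous B left out 0 and 3, and with knockout B left out 0 and 7. Igfbpl1, Flrt2 and Etv1 were the genes named here that passed in each of the 6 fits that leave out 1 library.

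Among ligands, Fgf2, which binds Fgfr1, had 178, 198 and 159 normalized reads in knockout libraries A, B and C, against 39.3, 47.0 and 82.0 in heterozygous ones. The groups did not overlap, and the log2 fold change was 1.71 ± 0.39 (SE; limma adjusted p = 0.021). Pdgfa, a ligand of Pdgfra, had 1328, 1010 and 1049 in knockout libraries A, B and C, against 483, 422 and 653 in heterozygous ones (1.13 ± 0.23, adjusted p = 0.0152). Fgf3 went the other way, with 0, 10.7 and 15.2 in knockout libraries and 123, 127 and 96.0 in heterozygous ones. Its log2 fold change of -4.33 depends on the library at 0, and edgeR on whole reads gave -3.68 (adjusted p = 0.0256). Of the other tested ligands, none of 8 in the EGF and neuregulin list passed limma and none had an unadjusted p under 0.05; the smallest p was that of Nrg1, an Erbb3 and Erbb4 ligand, with a log2 difference of 0.57 ± 0.31 (adjusted p = 0.222). In the insulin family list of 8 tested genes, Igfbpl1, a secreted protein related to the IGF-binding proteins, was at 489 ± 120 in knockout and 4233 ± 1391 in heterozygous libraries (SD, n = 3 each; log2 fold change -3.08 ± 0.29 SE, adjusted p = 0.000886). Fgf2, Pdgfa and Fgf3 each lost their call without heterozygous A or heterozygous B (Fgf2 and Pdgfa also without knockout B).

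Coreceptors and other receptors moved in both directions. Flrt2 and Flrt3, membrane proteins of a family that binds FGF receptors, fell by 1.92 and 2.09 on the log2 scale (SE 0.27 and 0.45; limma adjusted p = 0.00328 and 0.0175), 2 of 9 tested in their list. Among 27 other receptor tyrosine kinases 2 were higher and 0 lower, that is 7.41% called against 15.8% of all tested genes. Of these 27, 23 had a positive log2 value, and their median was 0.74 against 0.05 over all tested genes. The share of all tested genes with a positive value was not counted. Pdgfrb, the other PDGF receptor, had 3206, 3811 and 3848 in knockout libraries A, B and C, against 1963, 973 and 2216 in heterozygous ones (1.16 ± 0.29, adjusted p = 0.0298). Musk, the agrin-responsive receptor of the muscle synapse, had 337, 392 and 180 in knockout libraries, against 89.8, 57.8 and 74.0 in heterozygous ones (1.97 ± 0.38, adjusted p = 0.0123). The 6 mural cell markers, a population that expresses Pdgfrb, summed to 30861, 24039 and 8527 in knockout libraries A, B and C, against 6842, 9808 and 16301 in heterozygous ones, none called; their part in the Pdgfrb value was not tested.

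Downstream of the receptors, 3 of 25 adaptors and proximal effectors were called, that is 12% against 15.8% of all tested genes. The docking protein gene Gab1 was 1.66-fold higher (limma adjusted p = 0.0353), the adaptor gene Shc2 was 4.18-fold lower (adjusted p = 0.0127), and Pik3r3, a PI3-kinase regulatory subunit, was 2.79-fold lower (adjusted p = 0.0107). In the kinase core of 18 genes Nras fell 1.56-fold (adjusted p = 0.0381) and Mtor rose 1.68-fold (adjusted p = 0.0435), and Mtor passed in none of the 6 fits that leave out 1 library. Of 20 feedback inhibitors 5 were called, that is 25%. The ERK phosphatase gene Dusp4 had 7.68, 72.1 and 150 normalized reads in knockout libraries A, B and C, against 737, 583 and 472 in heterozygous ones (-3.69 ± 0.86, limma adjusted p = 0.0226). The size of the Dusp4 change is uncertain, since edgeR on whole reads gave -2.94 (adjusted p = 0.031). With 1 library left out it ranged from -4.55 to -2.49. It lost its limma call without heterozygous A (adjusted p = 0.0864) or heterozygous B (adjusted p = 0.109). Socs2, a suppressor of cytokine signalling, fell 2.36-fold (adjusted p = 0.0368, edgeR adjusted p = 0.0577), and Rnf41, the ubiquitin ligase Nrdp1 that lowers Erbb3 protein, fell 1.76-fold (adjusted p = 0.0248). Lrig1 and Lrig3, of which Lrig1 promotes the degradation of ErbB receptors, were the 2 inhibitors that rose, 1.86-fold and 2.44-fold (adjusted p = 0.0477 and 0.0377), and are named after their values were seen.

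Of 14 transcription factors that respond to ERK signalling, 1 was called, that is 7.14% against 15.8% of all tested genes. Etv1, an ETS factor, had 1017, 1182 and 1695 normalized reads in knockout libraries A, B and C, against 5928, 5427 and 4191 in heterozygous ones. No library overlapped, and the log2 fold change was -2.02 ± 0.23 (SE; limma adjusted p = 0.00141). Etv1 is also expressed in immature olfactory interneurons, and the neuroblast sums given with Erbb4 moved the same way, with their part in Etv1 not tested.

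**Figure D5:**
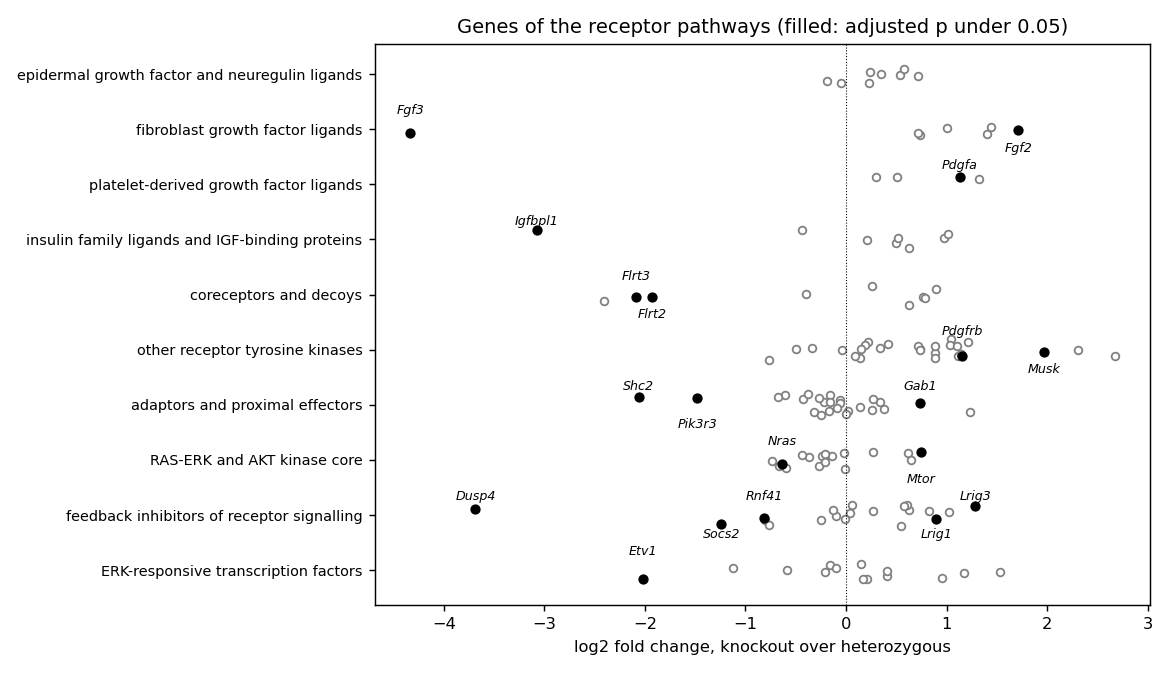
Log2 fold change of knockout over heterozygous libraries for the 140 tested genes of 10 pathway lists, 1 point per gene, with vertical offsets within a row that only separate the points. Filled and named points passed an adjusted p of 0.05 (8 higher, 11 lower), with Fgf3, Dusp4 and Igfbpl1 farthest to the left and Musk and Fgf2 among the named genes farthest to the right.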

How the data were processed

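RNA was prepared from pelleted sorted cells, at least 35 ng was converted to cDNA with SMART-Seq v4, and libraries were made with Nextera XT, per the labels' protocols, kits that do not mark strand. Alignment with HISAT2, counting with featureCounts of Subread and testing with DESeq2 on GRCm38 are named in the submitters' processing notes, without versions. The deposited values per library and their mean are a normalized signal, read counts divided by 1 size factor per library by the authors. The authors' deposited table also gives a log2 fold change with its SE, p-values and adjusted p-values, and a Wald score and test weight score per the file headers. All values above 0 were whole multiples of 1 step per library within 0.001 reads, which gave back whole reads and depth.

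The main test was limma-trend (limma 3.58.1, R 4.3.3) of log2(value + 1), for 18227 rows with a mean of at least 10, two-sided, with genotype alone in the model and p-values adjusted by Benjamini-Hochberg over every row tested. This scale can understate or overstate fold changes of low genes. Fgf3 was at -4.33 with limma and at -3.68 with edgeR. The p-values measure the spread between 3 pooled libraries per group. edgeR 4.0.16 (quasi-likelihood) on the whole reads called 2921 genes, against 2883 with limma. Other alternatives were DESeq2 1.42.0, pseudocounts, filters, TMM and upper-quartile scaling, a block for the library letter, and fits that drop 1 library. The procedures were tested on simulated data. Every pair of libraries differed by more than sampling noise (smallest chi-square per degree of freedom 46.9). Over all tested genes, deviations from the group mean were not alike between libraries of the same letter (correlation -0.072, 0.021 and -0.103 for A, B and C). Such a correlation cannot tell whether a letter marks something shared by fewer genes, and both C libraries were high in Pdgfra, Gpr17, Lhfpl3 and Sst. Exon lengths and coordinates are from GENCODE M21 on GRCm38, promoter sequences from RefSeq on GRCm38.p6. The named genes were the receptors, the targeted genes, up to 3 called genes of each pathway list (or that with the smallest p) and the 3 genes nearest to each called receptor. The receptors and lists were chosen with earlier results of these data known.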

Additional observations from a re-analysis of the deposited data

How the results depend on the processing

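Erbb4 was called lower under all alternatives run, the 6 fits that drop 1 library included. The number of receptors called higher was 1 with limma, 3 with DESeq2 (13.8% of all genes called), 2 with a replicate block, 2 without both C libraries and 0 to 2 with 1 library left out. Genes called higher numbered 1318 with limma, 2264 with DESeq2 and 2181 without both C libraries, and 111 to 1964 with 1 library left out; genes called lower numbered 1565, and 470 to 2057. Pathway genes called higher numbered 8, then 5 with no filter, 15 with DESeq2, 19 without both C libraries and 0 to 13 with 1 library left out; those called lower numbered 11, and 3 to 14. The cause of these shifts was not tested.

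Signs turned where the difference was near 0. Egfr was -0.01 on the log2 scale without both C libraries, and Pdgfra was -0.01 with TMM scaling, -0.56 with edgeR and -0.54 with DESeq2. With 1 library left out, Egfr ranged from -0.10 to 0.63, Igf1r from -0.08 to 0.23, Pdgfra from -1.03 to 1.38 and E2f3 from -0.06 to 0.21. With the replicate block, Erbb2 passed (limma adjusted p = 0.0485) and 1105 genes were called higher and 1205 lower. The labels do not say whether the letters pair the libraries. The fit without both C libraries was chosen after seeing the data. With 3 pooled libraries per group, the intervals given for Egfr, Erbb3 and Pdgfra include both 0 and changes of over 2-fold.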
